A study of Homo sapiens with 4 samples.

Results

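The non-collagen matrix genes of ES-2 cells were examined: fibronectin, the laminin chains and their basement membrane partners, the matricellular proteins, the hyaluronan synthases, the matrix and cell surface proteoglycans, and the proteins of elastic fibres and microfibrils. The set was a list of 56 gene symbols. Of these, 55 had a row among the 19626 genes of the deposited tables (MFAP5 had none), and 41 were among the 12157 genes whose RPKM exceeded 1 somewhere among the libraries, which were those tested. RPKM is the read count of a gene per kilobase of transcript, scaled to the mapped reads of the library. ES-2 is an established human ovarian cancer line, labelled as ovarian clear cell carcinoma, that carries an endogenous fusion of YAP1 and MAML2 (YM). Both groups were infected with pLKO.1 lentivirus and collected 96 h after the first infection according to the sample labels. The methods of the study state a shorter transduction time. The shCtl group (n = 2 libraries) received a nontargeting hairpin and the shM2-3 group (n = 2 libraries) a hairpin against a sequence that MAML2 and the fusion share, so that the effect on either transcript cannot be told apart from the effect on the other. A single knockdown hairpin and a single cell line were sequenced, with cultures grown independently. The question addressed was which of these matrix genes differ in their RNA level when MAML2 and YM are knocked down.

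The matrix around a cell is a meshwork of secreted proteins and sugar chains to which the cell adheres through integrins and other receptors. Fibronectin is a secreted glycoprotein that cells pull into fibrils through integrins. Laminins are trimers of an alpha, a beta and a gamma chain that form the sheet of basement membranes, where nidogens, perlecan and agrin tie them to other components and to the cell. Proteoglycans carry long sulfated sugar chains that bind growth factors and water, hyaluronan is a free sugar polymer made at the plasma membrane, and microfibrils of fibrillin form a scaffold for elastin and store latent TGF-beta.

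The libraries held from 20051083 to 23978660 estimated counts, and 42.4% to 48.6% of the values in a library were whole numbers. The targeted gene MAML2 went from 1436 and 1402 counts to 634 and 553, a log2 fold change of -1.40 (standard error, SE, 0.0688, edgeR adjusted p = 5.18e-10), so that 36.2% of its RPKM remained. The fusion transcript carries part of MAML2, so its reads can count toward this gene, and the value does not separate native MAML2 from YM. Of 5 mesenchymal markers all were above an RPKM of 1, with a sum of 2963 to 3056 in shCtl and 2122 to 2171 in shM2-3, most of it VIM. VIM (-0.44), TWIST1 (-0.74) and SNAI2 (-0.33) had log2 fold changes below 0, and CDH2 (0.34) and ZEB1 (0.52) above 0. Of the 6 epithelial markers 3 were above an RPKM of 1, all of them keratins, while EPCAM and CDH1 were near 0 in both groups. The summed RPKM of the 6 was 637 in both shCtl libraries and 312 to 316 in shM2-3. The labelled clear cell type was poorly marked: among the 5 clear cell carcinoma markers with a row, 1 was above an RPKM of 1, and NAPSA and PAX8 were both below 1. Fibroblasts make many of the genes described here. Of 6 fibroblast markers 3 exceeded an RPKM of 1, the summed RPKM of the 6 was 41.1 to 42.9 in shCtl and 48.1 to 49.0 in shM2-3, and COL3A1 and DPT had at most 10 and 15 counts in any library. Within that sum PDGFRA rose from 7.58 and 7.51 RPKM to 25.2 and 24.8 and PDGFRB went from 0.482 and 0.662 to 1.20 and 1.37, while THY1 was 32.7 and 34.3 in shCtl and 21.9 and 21.6 in shM2-3. The members DCN, LUM and POSTN, also typical of fibroblasts, had at most 8 counts. The summed RPKM of 6 endothelial markers was 9.48 to 10.6 in shCtl and 5.12 to 5.67 in shM2-3, with 2 of the 6 over 1. Of these CDH5 fell from 9.14 and 10.2 RPKM to 4.17 and 4.03, and PECAM1 went from 6 and 5 counts to 256 and 163. PDGFRB and PECAM1 exceeded an RPKM of 1 in shM2-3 alone and are given as levels only. The 5 leukocyte markers in the tables summed to 57.4 to 58.3 in shCtl and 39.4 to 40.5 in shM2-3, with 2 of them over 1 and PTPRC at 3 counts or fewer. Most of that sum was CD68, at 57.3 and 56.9 RPKM in shCtl and 37.8 and 39.0 in shM2-3. LYZ exceeded 1 in the first shM2-3 library alone, with 100 counts there and 5 in the second. The part of any of these marker differences in the results given here was not tested. The cultures were of a single established line, and the markers are given as RNA levels of that line. In bulk RNA a change in the share of its cells that express a gene and a change in RNA per cell cannot be told apart.

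Of the 41 matrix genes tested, 16 rose and 2 fell after knockdown. A gene was called when its Benjamini-Hochberg adjusted p over all tested genes was 0.05 or less and its fold change was 2 or more, and "rose" and "fell" are used here for called genes only. The 16 risen genes are 39.0% of the members tested, where 9.24% of all tested genes rose. The 2 fallen genes are 4.88% of the members, where 8.93% of all tested genes fell. In either direction 18 members, or 43.9%, were called, against 18.2% of all tested genes. The members were chosen with earlier results of these data known, so these shares describe the list and do not test it. By the adjusted p alone, with no fold limit, 28 members were higher and 9 lower, so that 37 of 41 passed. That count has to be read against a background in which 36.3% of tested genes were higher, 36.4% were lower and 72.7% passed in either direction. LAMA4, LAMB1, SRPX2, SDC2 and EFEMP2 passed with edgeR adjusted p-values from 0.0112 to 0.0462, and each went over 0.05 in at least 1 alternative analysis or with 1 library left out. The median log2 fold change of the members was 0.73, and of all tested genes -0.0037. HAS2, HAS3, NID2 and EMILIN1 exceeded an RPKM of 1 in shM2-3 alone, so they could enter the test by a higher level there and not otherwise. Among genes whose RPKM exceeded 1 in both groups, a filter chosen after seeing the data, 12 of 37 members rose (32.4%), where 6.88% of 11066 genes rose, and 2 fell (5.41%), where 6.84% fell. With every gene with a read in the test and no RPKM filter, those 4 genes were called higher as well. The RPKM of the groups did not overlap for 39 of the 41 members, nor for 86% of all tested genes, so that lack of overlap between pairs of libraries was common. The values ran from -3.11 for EFEMP1 to 5.22 for HAS2.

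**Figure D1:**
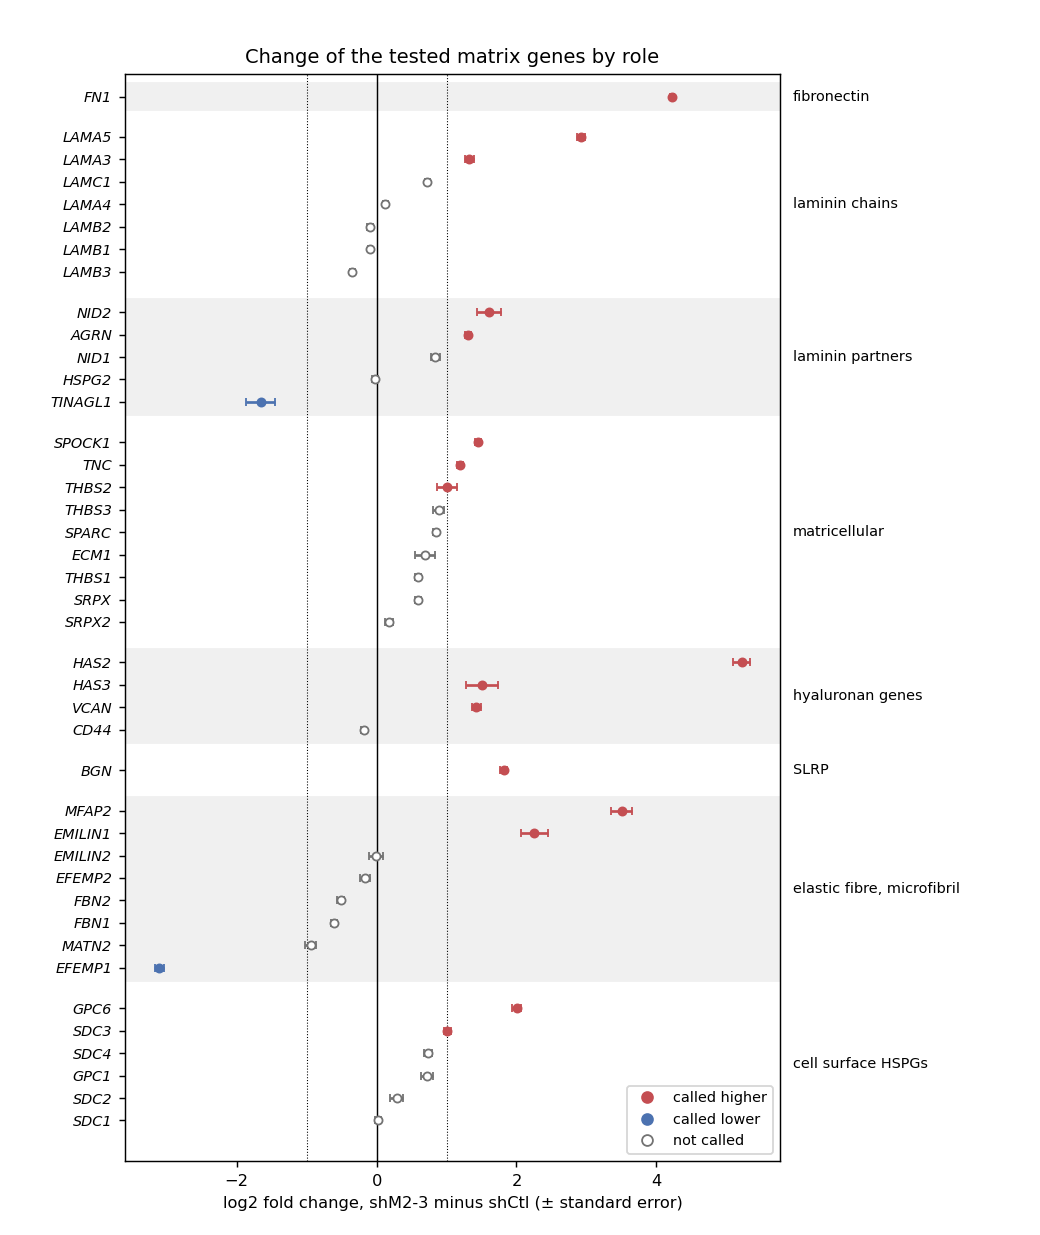
Log2 fold change of each of the 41 tested members, shM2-3 over shCtl, grouped by role on the vertical axis, with bars of 1 standard error from the edgeR fit and dotted lines at the fold limit. The 18 called genes lie beyond the dotted lines, with HAS2 at 5.22, FN1 at 4.22 and MFAP2 at 3.50 on the right and EFEMP1 at -3.11 on the left.

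The promoters of the 5 called members in which a searched motif was found are shown. RefSeq promoter sequence (assembly GRCh38.p14) was matched for 43 of the 56 members, 34 of them tested and 13 called, and the 250 bases before each transcript start were searched on both strands. The called members AGRN, EFEMP1, EMILIN1, HAS2 and SPOCK1 had no promoter entry and were not searched. The motifs were GGAATG, bound by the TEAD factors through which YAP1 acts, TGANTCA, bound by AP-1, and TGACGTCA, the cyclic AMP response element (CRE). No motif overlapped another in the 5 stretches, which are written 5′ to 3′ on the strand of the gene with the motifs in capitals. They lie at chr2:215436069-215436318 (minus strand) for FN1, chr18:23872770-23873019 (plus strand) for LAMA3, chr6:169253847-169254096 (minus strand) for THBS2, chr1:16981584-16981833 (minus strand) for MFAP2 and chr1:31577895-31578144 (plus strand) for TINAGL1, the one fallen gene among them.
FN1: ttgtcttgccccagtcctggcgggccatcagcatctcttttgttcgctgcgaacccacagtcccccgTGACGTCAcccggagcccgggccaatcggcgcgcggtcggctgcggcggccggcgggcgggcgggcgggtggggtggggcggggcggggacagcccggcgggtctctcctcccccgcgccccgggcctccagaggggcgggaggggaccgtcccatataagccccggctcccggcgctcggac
LAMA3: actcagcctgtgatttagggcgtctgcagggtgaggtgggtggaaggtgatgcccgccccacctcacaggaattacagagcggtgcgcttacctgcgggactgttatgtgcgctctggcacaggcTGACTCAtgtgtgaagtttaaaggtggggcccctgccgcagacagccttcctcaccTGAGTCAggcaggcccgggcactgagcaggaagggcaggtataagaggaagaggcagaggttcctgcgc
THBS2: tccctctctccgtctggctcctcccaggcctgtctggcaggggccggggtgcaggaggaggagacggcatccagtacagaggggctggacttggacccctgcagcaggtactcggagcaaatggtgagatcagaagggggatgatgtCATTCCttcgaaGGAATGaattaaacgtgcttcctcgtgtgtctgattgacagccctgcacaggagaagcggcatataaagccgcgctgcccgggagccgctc
MFAP2: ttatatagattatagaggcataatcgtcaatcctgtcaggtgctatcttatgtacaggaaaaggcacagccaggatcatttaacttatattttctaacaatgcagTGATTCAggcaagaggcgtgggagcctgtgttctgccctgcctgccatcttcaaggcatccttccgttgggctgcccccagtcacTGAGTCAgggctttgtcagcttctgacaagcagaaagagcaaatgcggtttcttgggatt
TINAGL1: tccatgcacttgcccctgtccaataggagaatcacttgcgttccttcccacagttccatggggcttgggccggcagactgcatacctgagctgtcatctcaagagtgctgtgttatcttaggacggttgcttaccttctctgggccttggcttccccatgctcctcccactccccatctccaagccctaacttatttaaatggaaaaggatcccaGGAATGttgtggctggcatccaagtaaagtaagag
The FN1 stretch holds the CRE from 183 to 176 bases before the start. LAMA3 holds AP-1 matches from 125 to 119 and from 69 to 63 bases before the start of 1 of its transcripts. MFAP2 holds AP-1 matches from 145 to 139 and from 60 to 54 bases before 1 of its starts. The stretch before its other start, at chr1:16980621-16980870, holds no match. THBS2 holds a TEAD match on either strand, from 103 to 98 and from 91 to 86 bases before the start. TINAGL1 holds a TEAD match from 35 to 30 bases before 1 of its starts, and none of the motifs before its other start, at chr1:31576265-31576514.

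These matches were as follows among members and among other genes. A TEAD match was found in 7 of the 34 tested members with a promoter (20.6%) and 2 of the 13 called (15.4%), and in 13.2% of 9571 tested genes. An AP-1 match was found in 6 of 34 (17.6%) and 2 of 13 (15.4%), and in 6.08% of tested genes. The CRE was found in 1 of 34 (2.94%) and 1 of 13 (7.69%), FN1 in each case, and in 3.47% of tested genes. Among all 27305 genes with a promoter the shares were 14.3%, 8.06% and 2.03% for TEAD, AP-1 and CRE. A match gives the letters only and does not show that a factor binds there.

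FN1, which encodes fibronectin (chr2:215360440-215436073, minus strand; gene coordinates are those of hg38 throughout), was the most abundant member after knockdown. It had 37490 and 38108 counts under shCtl against 826221 and 733800 under shM2-3, and its RPKM averaged 178 ± 0.0523 under shCtl against 3176 ± 43.1 under shM2-3 (SD, n = 2 each). The log2 fold change was 4.22 (SE 0.0275, edgeR adjusted p = 1.58e-18). FN1 ranked 229 of all genes by RPKM in both shCtl libraries and 3 in both shM2-3 libraries.

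The members' share of a library moved largely with this gene. FN1 took 0.187% of the counts in either shCtl library and 3.45% and 3.36% in the shM2-3 libraries. All members together took 0.956% and 0.963% in shCtl and 4.52% and 4.42% in shM2-3. Without FN1 the members held 0.769% and 0.777% in shCtl and 1.08% and 1.06% in shM2-3, so the other members were also higher as a sum, by far less. FN1 made up 19.6% and 19.4% of the member counts in shCtl and 76.2% and 76.0% in shM2-3. With FN1 left out of the scaling between libraries, the same 18 members were called.

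**Figure D2:**
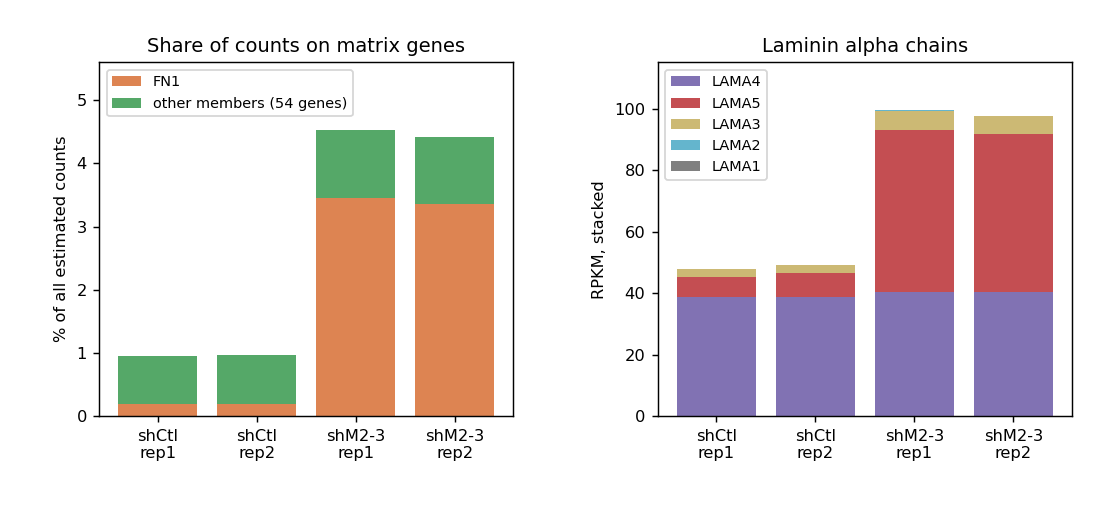
Left, share of all estimated counts in each library that fell on FN1 (orange) and on the other members (green); right, stacked RPKM of the 5 laminin alpha chains in each library. FN1 took 3.45% and 3.36% of the shM2-3 counts, and LAMA5 was 14.8% of the alpha chain RPKM in shCtl and 52.8% in shM2-3, while the LAMA4 segment had nearly the same height in all 4 libraries.

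Of the 7 tested laminin chains 2 rose, both alpha chains, and none fell, with a median log2 fold change of 0.12. That is 28.6% called, against 18.2% of all tested genes, in a group of 7. LAMA5, the alpha chain of the broadly expressed epithelial laminins (chr20:62307955-62367312, minus strand), had 1778 and 2100 counts under shCtl against 17294 and 15190 under shM2-3. At 6.64 and 7.72 RPKM under shCtl against 52.8 and 51.3 under shM2-3, it gave a log2 fold change of 2.92 (SE 0.0581, edgeR adjusted p = 5.11e-14). LAMA3, the alpha chain of the epithelial anchoring laminin (chr18:23689453-23956222, plus strand), had 726 and 740 counts under shCtl against 2196 and 1861 under shM2-3. Its log2 fold change was 1.32 (SE 0.0622, edgeR adjusted p = 3.27e-10), from a low level of 2.51 ± 0.00307 to 5.99 ± 0.280 RPKM (SD, n = 2 each), and 0.996, under the limit, in limma on log2(RPKM + 1). LAMA4, an alpha chain of vascular and mesenchymal basement membranes, was 38.7 and 38.8 RPKM in shCtl and 40.3 and 40.4 in shM2-3, a log2 fold change of 0.12.

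The make-up of the alpha chains shifted accordingly. Their summed RPKM was 48.5 ± 0.811 under shCtl against 98.5 ± 1.33 under shM2-3 (SD, n = 2 each). LAMA4 made up 79.9% ± 1.25 of that sum under shCtl against 40.9% ± 0.614 under shM2-3 (SD, n = 2 each). LAMA5 went from 14.8% ± 1.32 to 52.8% ± 0.416, and LAMA3 was 5.17% ± 0.0800 and 6.08% ± 0.202 (SD, n = 2 each). LAMA4 had the highest RPKM of the alpha chains in both shCtl libraries, and LAMA5 in both shM2-3 libraries.

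The beta and gamma chains moved less than LAMA5 and LAMA3, though LAMC1 and LAMB3 moved more than LAMA4. LAMB1, which had the highest RPKM of all members in shCtl, was 204 and 201 RPKM in shCtl and 181 in both shM2-3 libraries, a log2 fold change of -0.10 (SE 0.0338). LAMB2 was 39.9 and 41.2 RPKM in shCtl and 37.1 and 35.5 in shM2-3. Its log2 fold change of -0.09 did not pass the test (edgeR adjusted p = 0.0601). By the edgeR adjusted p LAMB2 did pass with total counts (0.0142), filterByExpr (0.0326) and every gene with a read (0.0111). It also passed in the limma fits on log2(RPKM + 0.1) and log2(RPKM + 1) (adjusted p = 0.0161 and 0.0153), but not with DESeq2 (0.128). LAMB3, the beta chain that pairs with LAMA3, was 54.0 and 55.6 RPKM in shCtl and 40.9 and 41.5 in shM2-3, a log2 fold change of -0.34 (SE 0.0414, edgeR adjusted p = 5.00e-06) that lay under the fold limit. LAMC1, the gamma chain of most laminins, was 65.3 and 68.0 RPKM in shCtl and 106 and 104 in shM2-3, a log2 fold change of 0.72 (SE 0.0370, edgeR adjusted p = 8.26e-10), also under the fold limit. For LAMB1 the edgeR adjusted p was 0.0205, and 0.121 and 0.0661 without the first and the second shCtl library.

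Among the 5 tested partners of laminin in basement membranes 2 rose and 1 fell, where 9.24% and 8.93% of all tested genes did. NID2, 1 of the 2, was tested through its level in shM2-3 alone. AGRN, the heparan sulfate proteoglycan agrin that links laminin to dystroglycan (chr1:1020120-1056118), had 10307 and 11315 counts under shCtl against 31760 and 27225 under shM2-3. The RPKM averaged 56.5 ± 3.06 under shCtl against 133 ± 5.14 under shM2-3 (SD, n = 2 each), a log2 fold change of 1.30 (SE 0.0428, edgeR adjusted p = 7.42e-12). NID2, a nidogen that bridges laminin and type IV collagen (chr14:52004809-52069059), had 83 counts in either shCtl library and 317 and 243 in shM2-3, and was under the limit at 0.84 in limma on log2(RPKM + 1). Its log2 fold change was 1.61 (SE 0.172, edgeR adjusted p = 1.63e-06), and 30.7% of its exon bases are shared with RTRAF, which had 2285 and 2135 counts under shCtl against 2086 and 1992 under shM2-3. NID1, the other nidogen, gave a log2 fold change of 0.84 (SE 0.0666), higher by the adjusted p and under the fold limit.

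TINAGL1, a secreted basement membrane protein that binds integrins (chr1:31576485-31587686), fell from 168 and 192 counts to 72 and 54 under knockdown. Its RPKM was 3.14 and 3.53 in shCtl and 1.10 and 0.913 in shM2-3, a log2 fold change of -1.66 (SE 0.208, edgeR adjusted p = 7.70e-06). HSPG2, the basement membrane proteoglycan perlecan, was 14.0 RPKM in shCtl and 13.2 in shM2-3, with a log2 fold change of -0.02 (SE 0.0433, edgeR adjusted p = 0.702). Of the 2 large basement membrane heparan sulfate proteoglycans, agrin thus rose and perlecan did not pass the test.

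All 9 tested matricellular genes, which encode secreted proteins that modulate adhesion more than they build structure, were higher by the adjusted p, as were 36.3% of all tested genes, and 3 of them rose past the fold limit, against 9.24%. The lowest of the 9, SRPX2, had an adjusted p of 0.0139 with edgeR, which was 0.0588 with DESeq2, 0.0519 with every gene with a read, 0.147 and 0.149 in the limma fits and 0.0771 without the first shM2-3 library. TNC, tenascin C (chr9:115019575-115118207), had 4528 and 4494 counts under shCtl against 12197 and 10575 under shM2-3, or 22.7 and 22.2 RPKM against 50.1 and 48.0. The log2 fold change was 1.19 (SE 0.0413, edgeR adjusted p = 1.38e-11). SPOCK1, a secreted proteoglycan of the SPARC family also named testican (chr5:136975298-137598379), had 2079 and 2131 counts under shCtl against 6666 and 6072 under shM2-3, a log2 fold change of 1.46 (SE 0.0430, edgeR adjusted p = 2.53e-12). Both genes were higher in both shM2-3 libraries than in either shCtl library, but the groups did not overlap for 86% of all tested genes either.

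The third, THBS2, a thrombospondin that restrains blood vessel growth (chr6:169215780-169254050), lay at the fold limit. It had 143 and 173 counts under shCtl against 361 and 339 under shM2-3, a log2 fold change of 1.01 (SE 0.139, edgeR adjusted p = 1.94e-05). Without the first shCtl library the value was 0.89 and without the second shM2-3 library 0.98, both under the limit. An antisense gene, THBS2-AS1, shares 31.2% of its exon bases, and the libraries do not separate strands.

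The other matricellular genes stayed under the fold limit. SPARC, a collagen-binding glycoprotein, was 190 RPKM in both shCtl libraries and 327 and 326 in the shM2-3 libraries, a log2 fold change of 0.85 (SE 0.0346, edgeR adjusted p = 7.46e-11). THBS1, which can activate latent TGF-beta, was 25.9 and 26.1 RPKM in shCtl and 37.1 and 37.9 in shM2-3, a log2 fold change of 0.60 (SE 0.0407). SRPX, a sushi repeat protein, was 70.3 and 73.1 RPKM in shCtl and 102 and 104 in shM2-3, a log2 fold change of 0.59 (SE 0.0439). These 3 genes, too, were higher in both shM2-3 libraries than in either shCtl library, where 86% of all tested genes had groups that did not overlap. The remaining log2 fold changes were 0.89 for THBS3, 0.69 for ECM1 and 0.18 for SRPX2. SRPX2 shares 52.0% of its exon bases with SYTL4, and THBS3 shares 25.9% with the antisense gene THBS3-AS1.

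Of the 4 genes of the hyaluronan group 3 rose, where 9.24% of all tested genes did, and the receptor CD44 did not. This count has little weight, since HAS2 and HAS3 were tested through their level in shM2-3 alone. Their log2 fold changes with every gene with a read in the test were 5.19 and 1.48. HAS2, the hyaluronan synthase that makes long chains in most mesenchymal cells (chr8:121612116-121641440), had the highest log2 fold change of all members in the edgeR fit. It had 36 and 33 counts under shCtl against 1568 and 1283 under shM2-3, or 0.359 and 0.329 RPKM against 12.9 and 11.7. The log2 fold change was 5.22 (SE 0.123, edgeR adjusted p = 2.45e-13), and the RPKM was 35.7-fold higher. In limma on log2(RPKM + 1), which shrinks changes of low genes, it was 3.30, below the 4.15 of FN1. The antisense gene HAS2-AS1 shares 5.92% of the exon bases of HAS2. It had 35 and 30 counts under shCtl, near the 36 and 33 of HAS2, against 91 and 64 under shM2-3. How far such reads entered the HAS2 counts was not tested.

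HAS3, the synthase of shorter hyaluronan (chr16:69105653-69118719), had 44 and 62 counts under shCtl against 181 and 152 under shM2-3. Its log2 fold change was 1.51 (SE 0.230, edgeR adjusted p = 4.85e-05), and its RPKM in shM2-3 was 1.27, far below the 12.3 of HAS2. In limma on log2(RPKM + 1) HAS3 gave 0.63, under the fold limit. HAS3 shares 7.02% of its exon bases with CHTF8 and DERPC, and CHTF8 had 842 and 698 counts under shCtl against 1234 and 886 under shM2-3. DERPC had 512 and 587 against 902 and 1088, and how far such reads entered the HAS3 counts was not tested. VCAN, the hyaluronan-binding proteoglycan versican (chr5:83471618-83582303), had 1056 and 957 counts under shCtl against 3248 and 2740 under shM2-3, a log2 fold change of 1.43 (SE 0.0628, edgeR adjusted p = 1.63e-10). In shCtl HAS3 (0.392 and 0.541 RPKM) was above HAS2 in both libraries, and in shM2-3 the order was the opposite. CD44, the main hyaluronan receptor, was 131 and 132 RPKM in shCtl and 109 and 111 in shM2-3, a log2 fold change of -0.19 (SE 0.0356, edgeR adjusted p = 0.000337) under the fold limit.

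BGN, the small leucine-rich proteoglycan biglycan, which binds collagen and TGF-beta (chrX:153494980-153509546), was the single tested gene of its family. It had 1912 and 2099 counts under shCtl against 7957 and 7612 under shM2-3. The RPKM averaged 36.1 ± 1.94 under shCtl against 121 ± 4.73 under shM2-3 (SD, n = 2 each), a log2 fold change of 1.82 (SE 0.0508, edgeR adjusted p = 1.46e-12). Its relatives decorin (DCN) and lumican (LUM), both typical of fibroblasts, had at most 6 counts in any library.

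**Figure D3:**
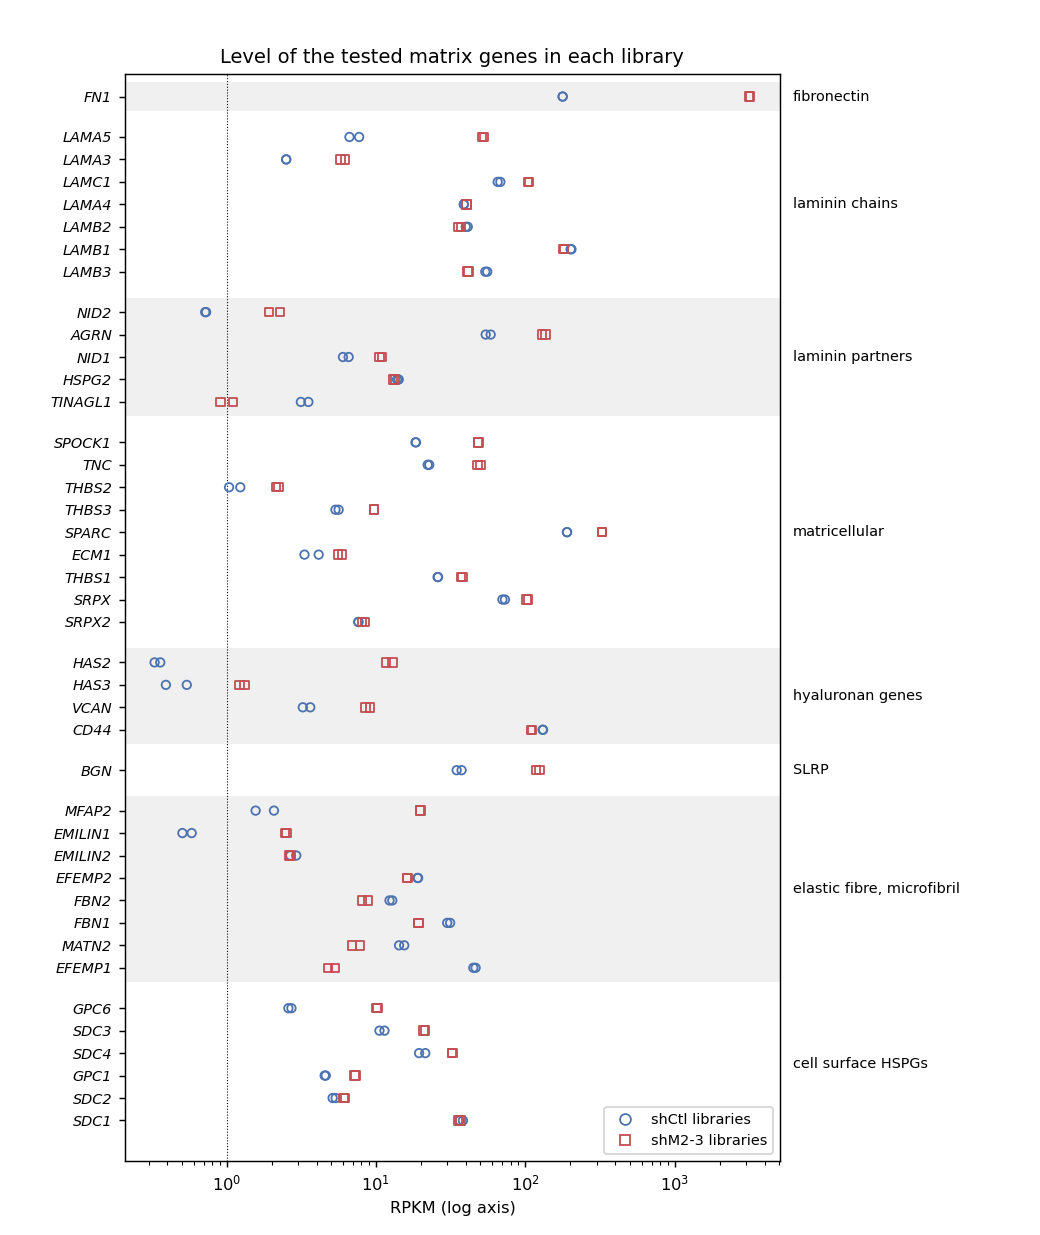
RPKM of the 41 tested members in each of the 4 libraries (shCtl as blue circles, shM2-3 as red squares), by role, on a log axis with a dotted line at an RPKM of 1. FN1 moves from 178 to 3207 and 3146 RPKM, HAS2 crosses the line from 0.329 and 0.359 to 11.7 and 12.9, EFEMP1 moves left from 44.9 and 46.5 to 5.32 and 4.76, and the symbols of HSPG2, EMILIN2 and SDC1 lie close together.

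Of the 8 tested elastic fibre and microfibril genes 2 rose and 1 fell, where 9.24% and 8.93% of all tested genes did, and the median log2 fold change was -0.34. EMILIN1, 1 of the 2, was tested through its level in shM2-3 alone. MFAP2, a small microfibril glycoprotein that binds fibrillin (chr1:16974502-16980632), had 43 and 58 counts under shCtl against 663 and 603 under shM2-3. The RPKM averaged 1.82 ± 0.361 under shCtl against 19.8 ± 0.0665 under shM2-3 (SD, n = 2 each), a log2 fold change of 3.50 (SE 0.147, edgeR adjusted p = 1.03e-10). A long noncoding RNA gene on the opposite strand overlaps 13.6% of its exon bases. EMILIN1, a glycoprotein at the interface of elastin and microfibrils (chr2:27078615-27086403), had 46 and 54 counts under shCtl against 280 and 248 under shM2-3, a log2 fold change of 2.26 (SE 0.189, edgeR adjusted p = 1.37e-07).

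EFEMP1, or fibulin-3, a secreted glycoprotein of the fibulin family (chr2:55865967-55924139), had the lowest log2 fold change of all members. It had 2847 and 2998 counts under shCtl against 413 and 335 under shM2-3. The RPKM averaged 45.7 ± 1.13 under shCtl against 5.04 ± 0.395 under shM2-3 (SD, n = 2 each), 9.05-fold lower, with a log2 fold change of -3.11 (SE 0.0654, edgeR adjusted p = 8.90e-14). Its close relative EFEMP2, fibulin-4, had a log2 fold change of -0.16 (SE 0.0693, edgeR adjusted p = 0.0462), and its RPKM was 19.1 in shCtl and 16.2 in shM2-3. The more abundant of the pair in shCtl was EFEMP1, and in shM2-3 it was EFEMP2.

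Both fibrillins, which form the core of microfibrils, were lower by the adjusted p and under the fold limit. FBN1 was 31.4 and 30.0 RPKM in shCtl and 19.3 and 19.2 in shM2-3, a log2 fold change of -0.61 (SE 0.0415, edgeR adjusted p = 1.77e-08). FBN2 had a log2 fold change of -0.51 (SE 0.0504). MATN2, a matrilin that forms filaments in the matrix, was 14.9 RPKM in shCtl and 7.37 in shM2-3, a log2 fold change of -0.94 (SE 0.0730, edgeR adjusted p = 5.90e-08), just under the limit. Without the first shM2-3 library it was -1.03, and in limma on log2(RPKM + 0.1) -1.004, both past the limit. EMILIN2 had a log2 fold change of -0.01 (edgeR adjusted p = 0.916). MFAP2 and its binding partners, the fibrillins, thus lay on opposite sides of 0.

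Among the cell surface heparan sulfate proteoglycans, which act as co-receptors for matrix proteins and growth factors, 2 of 6 rose, against 9.24% of all tested genes, and 5 were higher by the adjusted p, against 36.3%. None was lower. For SDC2, 1 of the 5, the adjusted p was 0.0118 with edgeR, 0.0581 with DESeq2, 0.0559 with edgeR without the first shCtl library and 0.0516 without the first shM2-3 library. GPC6, a glypican anchored to the membrane by a lipid (chr13:93226807-94408020), had 453 and 440 counts under shCtl against 2089 and 1860 under shM2-3, a log2 fold change of 2.0 (SE 0.0674, edgeR adjusted p = 1.01e-11). A long noncoding RNA gene on the opposite strand shares 511 exon bases with GPC6. SDC3, a syndecan best known in the nervous system (chr1:30869466-30908758), had 1297 and 1425 counts under shCtl against 3209 and 2837 under shM2-3, a log2 fold change of 1.01 (SE 0.0520, edgeR adjusted p = 8.80e-10). SDC3 lay at the fold limit, and without the first shCtl library its value was 0.957 and without the first shM2-3 library 0.999, both short of the limit.

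The other cell surface genes were not called. SDC4, the syndecan of focal adhesions, was 19.4 and 21.4 RPKM in shCtl and 32.3 and 32.4 in shM2-3, a log2 fold change of 0.73 (SE 0.0575, edgeR adjusted p = 7.00e-08). SDC1, the main epithelial syndecan, was 36.3 and 38.2 RPKM in shCtl and 35.3 and 36.7 in shM2-3, with a log2 fold change of 0.02 (edgeR adjusted p = 0.755) and groups that overlapped. GPC1 had a log2 fold change of 0.73 and SDC2 of 0.29. SDC1 was 50.4% ± 0.547 of the summed syndecan RPKM in shCtl and 37.7% ± 0.795 in shM2-3, and SDC3 was 14.9% ± 0.102 and 22.1% ± 0.511 (SD, n = 2 each).

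The order of members by RPKM differed between the groups. In shCtl the highest were LAMB1 (202 ± 1.84), SPARC (190 ± 0.0905), FN1 (178 ± 0.0523) and CD44 (131 ± 0.638), each apart from its neighbour by more than their spread (SD, n = 2). In shM2-3 they were FN1, SPARC (327), LAMB1 (181), AGRN (133) and BGN (121). Below CD44 in shM2-3, LAMC1 (106 and 104) and SRPX (102 and 104) overlapped.

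The 14 members with a row that were not tested had at most 0.797 RPKM and 67 counts in any library. Of these, 9 had 8 counts or fewer everywhere: LAMA1, LAMC3, VWA1, POSTN, DCN, LUM, FBLN1, ELN and GPC4. The elastin gene ELN had 7 and 4 counts in shCtl and 0 in both shM2-3 libraries. LAMA2, the alpha chain of muscle laminin, had 13 and 14 counts under shCtl against 40 and 38 under shM2-3, and MATN3, a cartilage matrilin, had 41 in either shCtl library and 17 and 25 in shM2-3. THBS4, FBLN2 and FBLN5 had between 4 and 67 counts.

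Related genes outside the set were read from 4 further lists, which were also chosen with earlier results of these data known. Of 16 fibronectin and laminin receptors 11 were tested, 4 rose and 1 fell, with a median log2 fold change of 0.99. The counts in all 4 lists have to be read against 9.24% of all tested genes risen, 8.93% fallen and 18.2% called. ITGB8, CSGALNACT1, CEMIP2 and HMCN1 exceeded an RPKM of 1 in shM2-3 alone and so entered the test through the group in which they were higher. ITGB8, an integrin beta chain that activates latent TGF-beta, had 74 and 102 counts under shCtl against 1628 and 1407 under shM2-3, a log2 fold change of 3.96 (SE 0.111). Without ITGB8, 3 of the other 10 rose. ITGA6, the alpha chain of laminin-binding integrins, fell from 43.9 and 42.7 RPKM to 14.0 and 13.5, a log2 fold change of -1.59 (SE 0.0441, edgeR adjusted p = 1.34e-12). ITGA5, the alpha chain of the main fibronectin receptor, named here after its values had been seen, rose from 30.9 and 33.5 RPKM to 190 and 193, a log2 fold change of 2.64 (SE 0.0456, edgeR adjusted p = 1.56e-14). ITGA6 does not stand for the laminin receptors as a group, since DAG1 rose (1.34 on the log2 scale), and ITGA3 (0.83) and BCAM (0.74) were higher by the adjusted p and under the fold limit.

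The enzymes and partners of the matrix sugars and microfibrils were counted in the same way. Of 34 genes of glycosaminoglycan chain synthesis 27 were tested, 3 rose and 1 fell, or 14.8% called, near the 18.2% of all tested genes, with a median log2 fold change of 0.31. CSGALNACT1, which starts chondroitin chains, was the highest at 3.14 (SE 0.252), from 24 and 18 counts to 211 and 200. CSGALNACT1, 1 of the 3, was tested through its level in shM2-3 alone. CHSY3, a chondroitin synthase, fell from 300 and 337 counts to 128 and 126, a log2 fold change of -1.47 (SE 0.147). Of 14 genes of hyaluronan turnover 5 were tested, 2 rose and 1 fell. CEMIP2, 1 of the 2, was tested through its level in shM2-3 alone. CEMIP2, a cell surface hyaluronan-degrading protein, rose from 116 and 134 counts to 863 and 761, a log2 fold change of 2.56 (SE 0.109), and HMMR, a hyaluronan-binding protein of the mitotic spindle, fell from 1794 and 1727 counts to 864 and 804, a log2 fold change of -1.22 (SE 0.0634). CEMIP, which also degrades hyaluronan, had 90 and 73 counts under shCtl against 43 and 34 under shM2-3 and was too low to be tested. Of 13 latent TGF-beta binding proteins and microfibril partners 9 were tested, 5 rose and none fell, with a median of 1.31. HMCN1, 1 of the 5, was tested through its level in shM2-3 alone, and the median is its own value. LTBP3, which holds latent TGF-beta in the matrix, was the highest, from 72.7 and 77.2 RPKM to 422 and 427, a log2 fold change of 2.57 (SE 0.0392), and HMCN1, a large basement membrane protein, was the lowest of those that rose, from 176 and 196 counts to 546 and 474, a log2 fold change of 1.31 (SE 0.114).

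**Figure D4:**
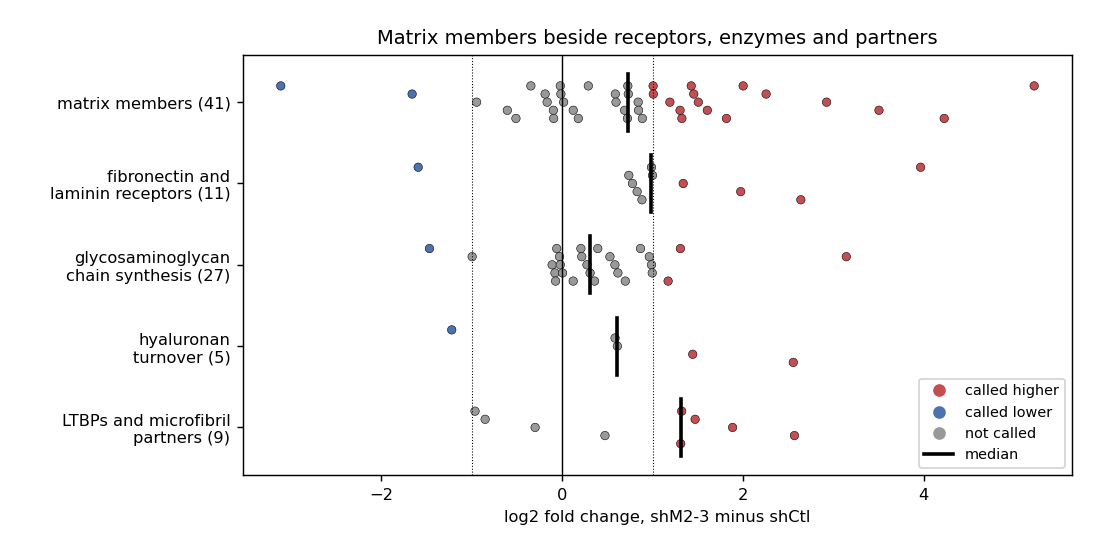
Log2 fold change, shM2-3 over shCtl, of the 41 tested members and of every tested gene of the 4 related lists, with called genes in red (higher) or blue (lower), a bar at each median and dotted lines at the fold limit. The median is 0.99 for receptors, 0.31 for glycosaminoglycan synthesis, 0.61 for hyaluronan turnover and 1.31 for latent TGF-beta binding and microfibril partners, and ITGB8 at 3.96 and ITGA6 at -1.59 mark the ends of the range of the related genes.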

How the data were processed

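RNA-seq libraries of ES-2 cells (shCtl and shM2-3, 2 each) were compared. Read pairs (150 bases per end) were mapped by the authors to hg38 using HISAT2 2.0.4. They discarded ambiguous reads and those of mapping quality under 10, and quantified RefSeq transcripts in Partek 7.18. They deposited estimated counts, which are not normalized and need not be whole, and RPKM values. Reads shared by overlapping genes cannot be assigned, since the libraries are not strand-specific.

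Estimated counts were rounded and tested with edgeR 4.0.16 (R 4.3.3; TMM factors, quasi-likelihood F test) over genes whose RPKM exceeded 1 in any library. Calls needed a p-value of at most 0.05 after Benjamini-Hochberg adjustment, together with a 2-fold difference. A standard error (SE) is the log2 fold change divided by the square root of F. With 2 libraries per group an SD rests on a pair of values, and library totals near 20051083 to 23978660 counts leave counting error in genes of few reads. The script was tested on simulated data.

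The members and lists were chosen with earlier results of these data known. Values are given by library for called members and for uncalled members of 20 RPKM or more in either group, for ITGA5 in addition, and for the lowest and highest called gene of each related list. Alternatives were DESeq2 1.42.0, total counts, scaling without FN1, other filters, limma 3.58.1 on log2(RPKM + 0.1) and log2(RPKM + 1), other fold limits, a test against the fold limit, a block on replicate number, omission of each library in turn, and, added after seeing the data, a filter of RPKM above 1 in both groups. Gene coordinates and exon overlaps come from GENCODE release 44 on hg38, the authors' build.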

Additional observations from a re-analysis of the deposited data

How the results depend on the processing

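The 18 member calls rest on 2 libraries per group and 1 hairpin, and the standard errors of called members were largest for HAS3, TINAGL1, EMILIN1 and NID2. SDC3 and THBS2 lost their calls with total counts, with filterByExpr, with every gene with a read, in both limma fits and without the first shCtl library. DESeq2, scaling without FN1 and leaving out the second shCtl library gave the same 18. With filterByExpr LAMA2 was called higher and MATN3 lower, and with every gene with a read 4 members were called lower, ELN among them. limma on log2(RPKM + 1) called 11 members higher and 2 lower, without LAMA3, NID2 and HAS3 as well, with 596 genes higher and 724 lower. limma on log2(RPKM + 0.1) called MATN2 lower in addition. With the filter added after seeing the data, an RPKM above 1 in both groups, 14 members were called, without HAS2, HAS3, NID2 and EMILIN1, which were not tested. With a fold limit of 1.5, 4 members and 2302 genes were lower and 25 members and 2296 genes higher. With no fold limit these were 9 and 4430 lower and 28 and 4414 higher. A test against the fold limit itself gave 628 genes lower and 712 higher, and 15 members, without HAS3, SDC3 and THBS2. The cause of these shifts was not tested, beyond the looser or stricter limit itself.

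Replicate numbers did not pair the libraries (correlation of deviations 0.0101). A fit with the replicate block called 16 members higher and 2 lower, with 1123 genes higher and 1079 lower. Leaving out 1 library left 16 to 18 members called. Log2 fold changes near 0 changed sign: HSPG2 ranged from -0.0486 to 0.0122 and EMILIN2 from -0.0731 to 0.050 with 1 library left out, and SDC1 from -0.0166 to 0.0523. SDC1 was also -0.0184 with total counts, -0.0138 with every gene with a read, -0.0484 in limma on log2(RPKM + 0.1) and -0.0472 on log2(RPKM + 1).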
